A study of Mus musculus with 6 samples.

Results

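The laminins and integrins of the mouse molar dental epithelium were taken from the deposited expression table by gene name, as every *Lama*, *Lamb* or *Lamc* gene with a number and every integrin alpha (*Itga*) or beta (*Itgb*) subunit gene. This rule found 37 of the 55487 genes, namely 11 laminin chain genes (5 alpha, 3 beta and 3 gamma) and 26 integrin subunit genes (18 alpha and 8 beta). The RNA came from dental epithelium of first mandibular molars at postnatal day 2.5 (PN2.5), when the epithelial root sheath begins to form. The 3 control libraries came from *Wnt10aflox/flox* mice and the 3 cKO libraries from *K14-Cre;Wnt10aflox/flox* mice, so that both groups carried the floxed *Wnt10a* alleles and only the cKO group carried the Cre transgene. *K14-Cre* is active in keratin 14-expressing epithelium, so *Wnt10a* is deleted in epithelial cells in general and not in the root sheath alone. Each library was made from the pooled epithelium of several molars of mice of either sex, and no library of *K14-Cre* mice with intact *Wnt10a* alleles was analysed here. The question was how the genes for the epithelial basement membrane and for the receptors that hold cells to it were expressed after epithelial *Wnt10a* was deleted.

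Laminins are secreted heterotrimers of an alpha, a beta and a gamma chain that polymerize into the basement membrane, the sheet of matrix on which every epithelium rests. Integrins are heterodimers of an alpha and a beta subunit that span the cell membrane and bind laminins, collagens or other matrix proteins outside the cell. In stratified and dental epithelia, laminin-332, which holds the chains of *Lama3* and *Lamb3*, is bound by the integrin of *Itga6* and *Itgb4* at the hemidesmosome, a junction that is tied through plectin to the keratin filaments. Loss-of-function mutations of these genes cause junctional epidermolysis bullosa, in which the epithelium separates from its basement membrane and enamel formation is commonly defective. In the tooth, the basement membrane between the inner enamel epithelium and the mesenchyme is broken down when ameloblasts differentiate.

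*Wnt10a* was measured at 55.96, 51.20 and 57.86 TPM (an abundance per transcript length and library total) in control replicates 1, 2 and 3 and at 22.69, 21.79 and 32.22 TPM in cKO replicates 1, 2 and 3, with no overlap. In cKO its mean was 46.5% of that in control (limma, log2 fold change -1.10 ± 0.19 SE, unadjusted p = 0.000653, adjusted p = 0.747). The exact two-sided permutation p was 0.1, the smallest that 3 against 3 libraries can give. The epithelial marker *Krt14* ranged from 2190 to 2773 TPM over the 6 libraries, and all 11 dental epithelium markers were above 0. All 12 markers of dental mesenchyme and odontoblasts were above 0 too, with *Col1a1*, a collagen of mesenchyme and bone, at 1795 to 3127 TPM. In cKO replicate 2 the enamel matrix gene *Amelx* took 8.65% of all TPM, whereas it took 16.5% to 20.6% in the other 5 libraries. In such bulk libraries, fewer cells of a type and less RNA per cell cannot be told apart.

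The levels of the laminin genes in the control libraries spanned a wide range. TPM values are per transcript length, so that levels of different genes can be compared. *Lamb3*, the beta chain of laminin-332, was at 396.49, 335.94 and 413.02 TPM in control replicates 1 to 3, above *Lamc1*, the gamma chain of most laminins, at 142.00 to 200.01 TPM. *Lama3*, the alpha chain of laminin-332, and *Lama5*, the alpha chain of laminin-511 and laminin-521 of most epithelial basement membranes, overlapped, at 128.48 to 169.18 TPM and 128.85 to 153.70 TPM. The other alpha chains were lower and overlapped one another: *Lama4*, a chain of vessel laminins, at 8.63 to 16.92 TPM, *Lama1*, a chain of laminin-111 of early epithelia, at 7.79 to 9.40 TPM, and *Lama2*, a chain of muscle and nerve laminins, at 4.16 to 9.19 TPM. The order of the beta chains was the same in every control library, with *Lamb3* above *Lamb1* above *Lamb2*, and *Lamc1* was above *Lamc3* in every one.

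**Figure D1:**
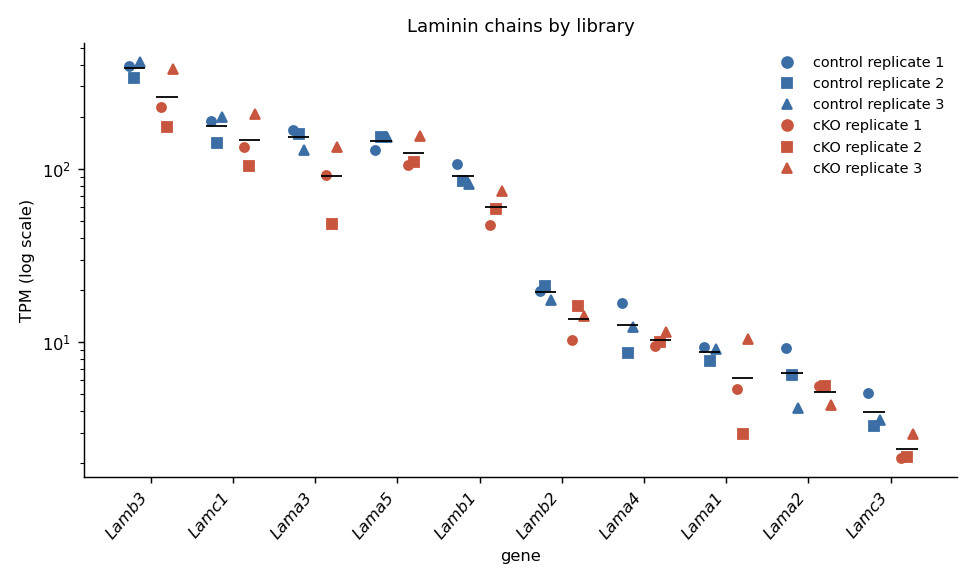
TPM of 10 laminin genes in each library (log axis), with 3 control and 3 cKO points per gene and a bar at each group mean. *Lamb1*, *Lamb2* and *Lamc3* are the genes whose control and cKO points do not overlap, and for *Lama3* and *Lamb3* cKO replicate 3 lies among the control points.

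Of the 37 genes, 28 averaged 1 TPM or more and were tested with all other genes of that level (13719 genes), and 25 of the 28 had a lower mean log2 level in cKO. They were 11 of 11 laminins and 14 of 17 integrins. The median log2 fold change was -0.35 over the 28 genes, -0.53 over the laminins and -0.32 over the integrins, beside -0.07 over all genes tested, of which 60.3% were lower. The share was higher among protein-coding genes whose longest annotated transcript was over 4000 bases, as it was in 24 of the 28. It was 77.5% from 4000 to 6000 bases, 84.4% from 6000 to 8000 bases and 89.2% above 8000 bases. Under the criteria of the methods, an unadjusted p below 0.05 and a group mean more than 20% away from control, 4 of the 28 genes were lower (*Lama3*, *Lamb1*, *Lamb2* and *Itga11*) and none higher, beside 2.47% of all genes lower and 1.55% higher. None met these criteria without control replicate 1 (27 of the genes tested) or without cKO replicate 1 (28 tested), beside 0.911% and 0.685% of all genes lower. Without cKO replicate 2, *Lamb2* was the one that did, and without control replicate 2, *Lamb1* and *Itga11* did (1.35% of all genes lower in each fit). Without control replicate 3, 3 of the 27 tested did (*Itga1*, *Lamb1* and *Lamb2*), beside 6.73% of all genes lower. Without cKO replicate 3 the number was 9, all lower, beside 4.31% of all genes. No gene of the 28 had an adjusted p below 0.05 in limma (all 1.00), against 0.0146% of all genes, while 4 had an unadjusted p below 0.05 in limma and 1 met the criteria in the unmoderated test on TPM, beside 2.05% of all genes lower in that test. In 6 of the 28 genes (*Lamb1*, *Lamb2*, *Lamc3*, *Itga5*, *Itga11* and *Itgb3*) the 3 cKO values all lay under the 3 control values, beside 6.13% of all genes, and in none did they all lie above, beside 3.51% of all genes.

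**Figure D2:**
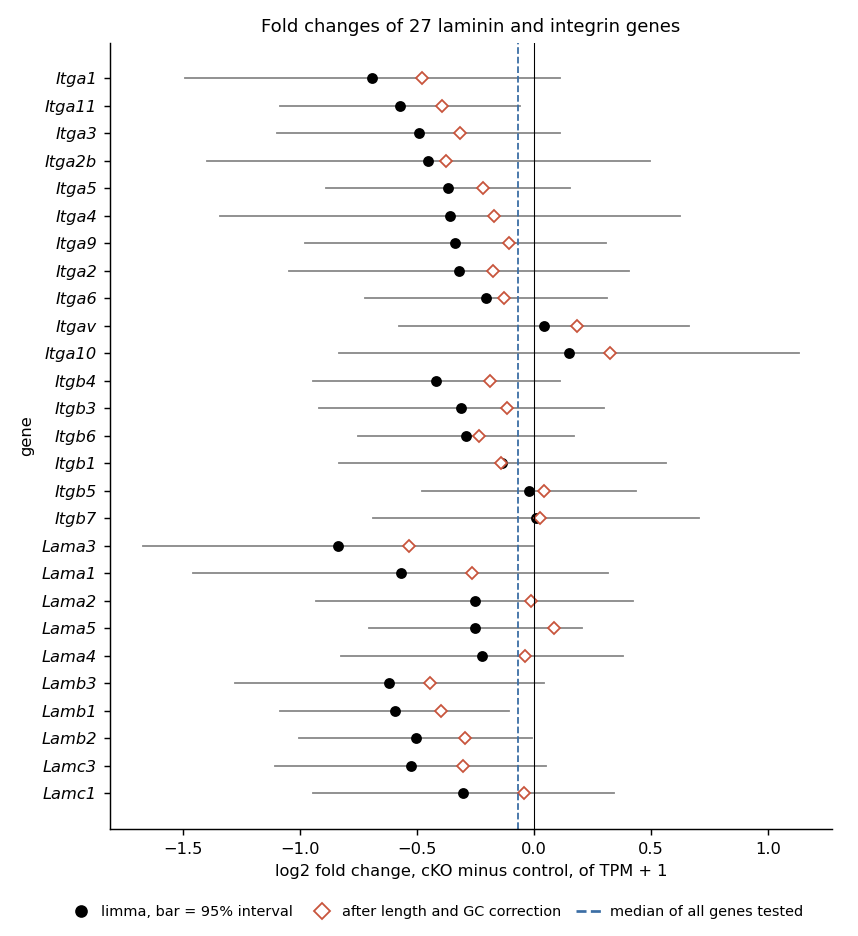
Log2 fold change (cKO minus control, on the log2(TPM + 1) scale) of 27 laminin and integrin genes as filled points with 95% confidence intervals for the measured values and open points for the values adjusted for length and GC content; the dashed line is the median of all genes tested. As measured, 24 of the 27 points lie below 0 and the intervals of *Lama3*, *Lamb1*, *Lamb2* and *Itga11* leave out 0.

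*Lama3* and *Lamb3*, which encode chains of laminin-332, had lower means in cKO, and in each the 3 cKO libraries were far apart. *Lama3*, the alpha chain that carries the integrin-binding domains, was at 169.18, 158.85 and 128.48 TPM in control replicates 1 to 3 and at 91.88, 47.96 and 134.89 TPM in cKO replicates 1 to 3. The first and second cKO libraries were below every control library and the third was above control replicate 3, so that the groups overlapped. The mean was 152 ± 21.2 TPM in control and 91.6 ± 43.5 TPM in cKO (SD, n = 3 each), 60.2% of control, with a log2 fold change of -0.84 ± 0.36 SE (limma, unadjusted p = 0.0495, adjusted p = 1.00; exact permutation p = 0.2). *Lama3* lies on chromosome 18 (12333819 to 12583013, plus strand, GRCm38), and 197 bases of its exons are shared with *Gm29200* on the opposite strand, which was at most 2.62 TPM.

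*Lamb3*, the beta chain, was at 396.49, 335.94 and 413.02 TPM in control and at 227.34, 175.03 and 380.36 TPM in cKO replicates 1 to 3. Again cKO replicates 1 and 2 were below every control library and cKO replicate 3 was within the control range. The mean was 382 ± 40.6 TPM in control and 261 ± 107 TPM in cKO (SD, n = 3 each), with a log2 fold change of -0.62 ± 0.28 SE, and *Lamb3* did not meet the criteria (limma, unadjusted p = 0.0624; exact permutation p = 0.2). Without cKO replicate 3 the log2 fold changes were -1.17 for *Lama3* and -0.93 for *Lamb3* (limma, unadjusted p = 0.00688 and 0.00248). Without cKO replicate 2, the library with the least *Amelx*, they were -0.44 and -0.37 (limma, unadjusted p = 0.11 and 0.194). Without any 1 of the other 5 libraries, the unadjusted p of *Lama3* was between 0.0513 and 0.125. *Lamb3* spans chr1:193207699-193343878 on the plus strand.

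Set beside *Lama3* within a library, *Lamb3* and *Lama5* were highest in cKO replicate 2. There *Lamb3* was 3.65 times *Lama3*, against 2.34, 2.12 and 3.21 times in control and 2.47 and 2.82 times in cKO replicates 1 and 3. *Lama5* was 2.28 times *Lama3* in cKO replicate 2, against 0.762 to 1.20 times in control and 1.14 and 1.16 times in the other cKO libraries. Per 100 TPM of *Krt14*, a keratin of basal epithelial cells, *Lamb3* was at 15.7, 15.3 and 14.9 TPM in control and at 10.2, 7.53 and 13.8 TPM in cKO, with no overlap. By the same measure *Lama3* (4.63 to 7.25 TPM in control, 2.06 to 4.91 TPM in cKO) overlapped, as did *Itga6*, *Itgb4* and *Itgb1*. The share of all genes without overlap by this measure was not computed.

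The remaining laminin chains are mostly those of laminin-111, laminin-211, laminin-411, laminin-511 and laminin-521, and the beta chains among them were lower in every cKO library. *Lamb1*, the widespread beta chain, was at 106.57, 85.20 and 81.64 TPM in control and at 47.74, 58.99 and 75.04 TPM in cKO replicates 1 to 3. All 3 cKO libraries were below all 3 control libraries, the third the least. The mean was 91.1 ± 13.5 TPM in control and 60.6 ± 13.7 TPM in cKO (SD, n = 3 each), with a log2 fold change of -0.59 ± 0.21 SE (limma, unadjusted p = 0.0238, adjusted p = 1.00; exact permutation p = 0.1). *Lamb2*, the beta chain of vessel, kidney and neuromuscular laminins, was at 19.85, 21.11 and 17.40 TPM in control and at 10.31, 16.26 and 14.20 TPM in cKO replicates 1 to 3. These groups did not overlap either, and cKO replicate 1 was the lowest. The mean was 19.5 ± 1.89 TPM in control and 13.6 ± 3.02 TPM in cKO (SD, n = 3 each), with a log2 fold change of -0.51 ± 0.21 SE (limma, unadjusted p = 0.0468, adjusted p = 1.00; exact permutation p = 0.1). The unadjusted p of *Lamb1* was 0.0914, 0.0811 and 0.0572 without control replicate 1, cKO replicate 1 and cKO replicate 2, and that of *Lamb2* was 0.117, 0.114, 0.146 and 0.0718 without control replicate 1, control replicate 2, cKO replicate 1 and cKO replicate 3. Without cKO replicate 1 the log2 fold change of *Lamb2* was -0.33.

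*Lamc3*, a gamma chain of narrow expression, was at 5.09, 3.27 and 3.53 TPM in control and at 2.15, 2.18 and 2.94 TPM in cKO, without overlap (limma, log2 fold change -0.53 ± 0.25 SE, unadjusted p = 0.0687). *Lamc1* overlapped, at 142.00 to 200.01 TPM in control and at 133.25, 103.55 and 206.92 TPM in cKO replicates 1 to 3. *Lama5* likewise was at 128.85 to 153.70 TPM in control and at 105.04, 109.18 and 156.01 TPM in cKO. For both, cKO replicates 1 and 2 were below and cKO replicate 3 above every control library. Their log2 fold changes were -0.30 (95% confidence interval -0.94 to 0.34) and -0.25 (-0.70 to 0.20), and those of *Lama1*, *Lama2* and *Lama4* were -0.57, -0.25 and -0.22, with unadjusted p from 0.173 to 0.416 (limma).

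The sequence just upstream of the RefSeq gene start, ended before any annotated exon base, is shown for the genes that met the criteria or belong to laminin-332 and that have a promoter window in the RefSeq table used here (GRCm38.p6). *Lamb1*, *Lamb2*, *Lamb3* and *Itga11* are shown, *Lama3* is not shown, and *Itga6* and *Itgb4* have no window there. The stretches are chr12:31265043-31265233 for *Lamb1*, chr9:108479612-108479735 for *Lamb2*, chr1:193301744-193301992 for *Lamb3* and chr9:62677605-62677825 for *Itga11*, all on the plus strand, and capitals mark motif matches. The *Lamb3* stretch lies inside the gene span given above, as the annotation also has an upstream start for this gene.
Lamb1: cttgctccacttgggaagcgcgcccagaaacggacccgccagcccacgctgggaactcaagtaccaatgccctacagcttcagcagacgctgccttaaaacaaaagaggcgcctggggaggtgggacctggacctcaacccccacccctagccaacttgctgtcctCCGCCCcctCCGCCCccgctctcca
Lamb2: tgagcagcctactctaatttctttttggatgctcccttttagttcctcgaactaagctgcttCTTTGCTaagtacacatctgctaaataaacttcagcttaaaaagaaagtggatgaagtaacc
Lamb3: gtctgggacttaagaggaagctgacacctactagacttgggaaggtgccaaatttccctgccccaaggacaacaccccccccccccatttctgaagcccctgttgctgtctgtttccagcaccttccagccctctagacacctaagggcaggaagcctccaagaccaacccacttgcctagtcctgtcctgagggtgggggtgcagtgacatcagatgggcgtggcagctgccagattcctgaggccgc
Itga11: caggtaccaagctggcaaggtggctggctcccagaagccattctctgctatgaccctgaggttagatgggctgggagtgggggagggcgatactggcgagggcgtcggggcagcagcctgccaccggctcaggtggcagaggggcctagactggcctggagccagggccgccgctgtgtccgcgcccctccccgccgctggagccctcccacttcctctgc
Each window of 250 upstream bases was searched on both strands for the TCF/LEF motif CTTTGNT, through which Wnt and β-catenin act, the AP-1 motif TGANTCA, the GC box GGGCGG and the TATA box TATAAA. *Lamb2* had 2 TCF/LEF matches in the window, 1 of them in the stretch shown, and this motif was in 16% of 32851 promoter windows. *Lamb1* had 2 GC boxes and no TCF/LEF match, and a GC box was in 32.7% of the windows. *Lamb3* and *Itga11* held none of these 4 motifs in the windows, of which 6.75% held the AP-1 motif and 12.4% the TATA box. Such matches describe letters in the window and not binding.

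Among the integrins of the control libraries, the subunits of the laminin receptors were at or near the top. *Itga6* was the highest alpha subunit, at 135.99, 139.79 and 90.87 TPM in control replicates 1 to 3, above *Itgav* (30.83 to 55.21 TPM) and *Itga3* (36.01 to 48.55 TPM), which overlapped. *Itgb1*, the partner of most alpha subunits, had the highest beta mean, at 118.18 to 220.38 TPM, and overlapped with *Itgb5* (100.92 to 147.99 TPM), which in turn overlapped with *Itgb4* (90.68 to 108.99 TPM). *Itgb6*, which pairs with *Itgav* in epithelia and is needed for normal enamel, was apart from these at 26.88 to 38.56 TPM.

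**Figure D3:**
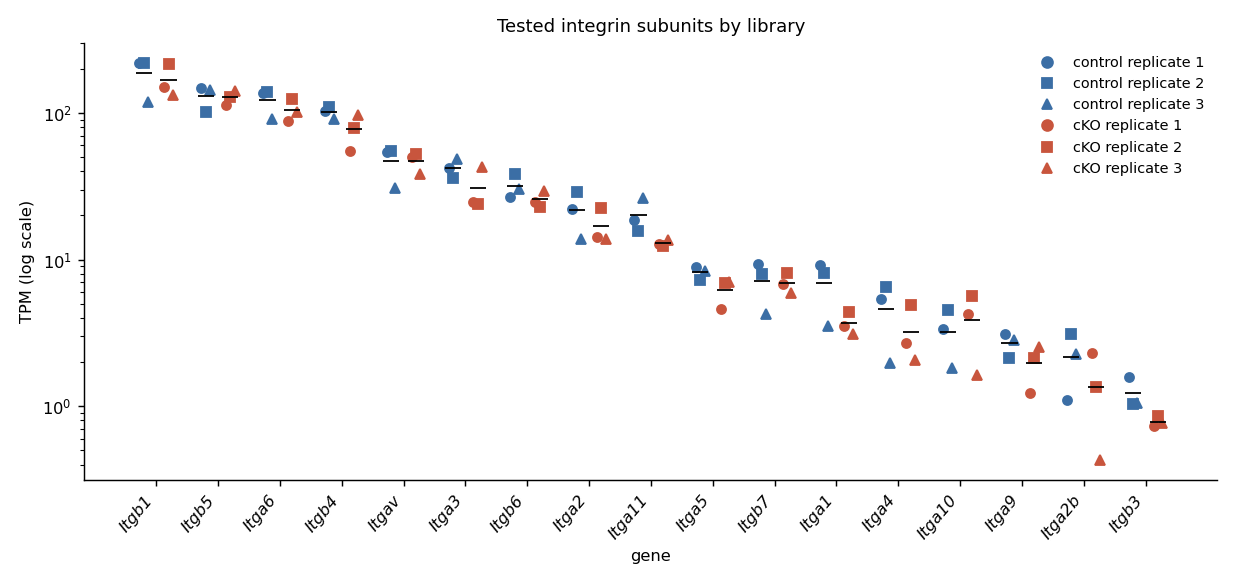
TPM of the tested integrin genes in each library (log axis), with 3 control and 3 cKO points per gene and a bar at each group mean. *Itga5*, *Itga11* and *Itgb3* are the genes whose control and cKO points do not overlap.

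The subunits of the hemidesmosome integrin did not meet the criteria. *Itga6* was at 88.65, 123.82 and 102.16 TPM in cKO replicates 1 to 3, of which the first was below and the other two within the control range of 90.87 to 139.79 TPM. The mean was 122 ± 27.2 TPM in control and 105 ± 17.7 TPM in cKO (SD, n = 3 each), with a log2 fold change of -0.21 and a 95% confidence interval of -0.72 to 0.31 (limma, unadjusted p = 0.379; exact permutation p = 0.3). The log2 fold change of *Itga6* was -0.12, -0.10 and -0.09 without control replicate 1, control replicate 2 and cKO replicate 1, and -0.41 and -0.33 without control replicate 3 and cKO replicate 2. *Itgb4*, whose long cytoplasmic tail binds plectin, was at 103.05, 108.99 and 90.68 TPM in control and at 55.14, 79.00 and 97.41 TPM in cKO replicates 1 to 3. The first and second cKO libraries were below every control library and the third was within the control range. The mean was 101 ± 9.34 TPM in control and 77.2 ± 21.2 TPM in cKO (SD, n = 3 each), with a log2 fold change of -0.42 ± 0.23 SE (limma, unadjusted p = 0.106; exact permutation p = 0.2), which was -0.20 (unadjusted p = 0.33) without cKO replicate 1 and -0.60 (unadjusted p = 0.0288) without cKO replicate 3. *Itga6* was 1.32, 1.28 and 1.00 times *Itgb4* in control replicates 1 to 3 and 1.61, 1.57 and 1.05 times in cKO replicates 1 to 3. *Itga6* spans chr2:71745616-71858416 and *Itgb4* chr11:115974709-116008412, both on the plus strand, and 537 exon bases of *Itgb4* are shared with *B230344G16Rik* on the opposite strand.

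The other laminin-binding subunits pair with *Itgb1*. *Itgb1* was at 218.34, 220.38 and 118.18 TPM in control and at 149.47, 216.79 and 132.62 TPM in cKO, and control replicate 3 was the lowest of the 6 libraries. Its log2 fold change was -0.13, with a 95% confidence interval of -0.83 to 0.57 (limma, unadjusted p = 0.666), and it was 0.01, 0.02 and 0.01 without control replicate 1, control replicate 2 and cKO replicate 3. *Itga3*, which with *Itgb1* binds laminin-332 and laminin-511, was at 41.92, 36.01 and 48.55 TPM in control and at 24.80, 23.95 and 42.96 TPM in cKO replicates 1 to 3. As in *Lamb3*, cKO replicates 1 and 2 were below every control library and cKO replicate 3 was within the control range (limma, log2 fold change -0.49 ± 0.26 SE, unadjusted p = 0.0959). A further ratio was chosen after the values were seen: *Itgb1* and *Itgb4* together were 2.36, 2.36 and 2.30 times *Itga6*, which pairs with both, in control and 2.31, 2.39 and 2.25 times in cKO. *Itga7*, the laminin receptor of muscle, was under the limit for testing, at 1.01, 1.17 and 0.89 TPM in control and at 0.83, 0.87 and 0.68 TPM in cKO.

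**Figure D4:**
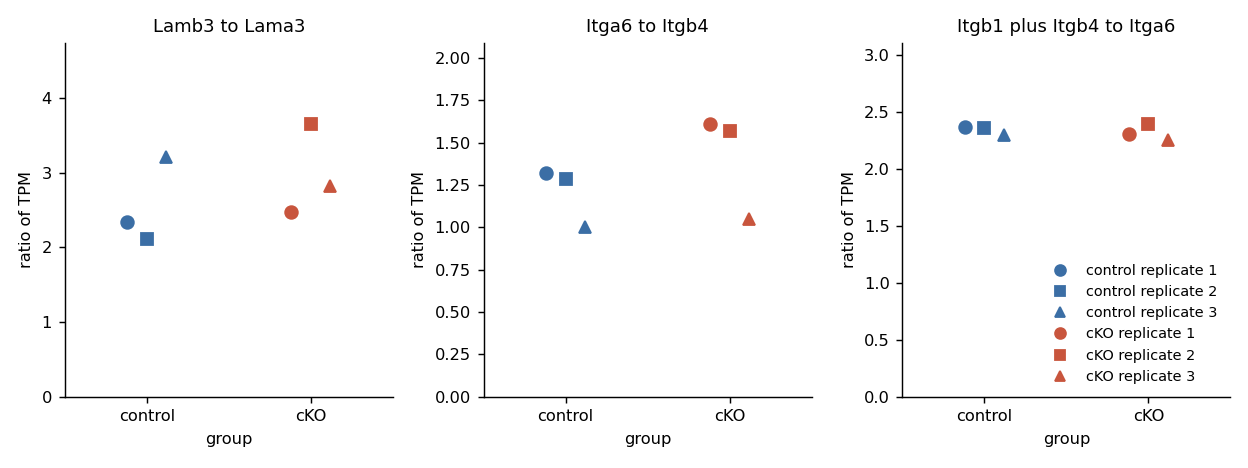
Ratios of TPM within each library, with 1 point per library: *Lamb3* to *Lama3* (left), *Itga6* to *Itgb4* (middle) and the sum of *Itgb1* and *Itgb4* to *Itga6* (right). *Lamb3* to *Lama3* is highest in cKO replicate 2 (3.65), whereas the ratio on the right stays between 2.25 and 2.39.

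Of the collagen-binding integrin subunits, which also pair with *Itgb1*, *Itga11* met the criteria. *Itga11*, a receptor for fibrillar collagen that is known from fibroblasts and mesenchyme, was at 18.52, 15.72 and 26.13 TPM in control and at 12.80, 12.31 and 13.66 TPM in cKO. The cKO libraries lay close together and below every control library, of which control replicate 3 was the highest. The mean was 20.1 ± 5.39 TPM in control and 12.9 ± 0.683 TPM in cKO (SD, n = 3 each), with a log2 fold change of -0.57 ± 0.22 SE (limma, unadjusted p = 0.0332, adjusted p = 1.00; exact permutation p = 0.1). *Itga1*, a receptor for basement membrane collagen, was at 9.21, 8.13 and 3.53 TPM in control and at 3.55, 4.40 and 3.10 TPM in cKO. Control replicates 1 and 2 were above every cKO library and control replicate 3 was among them (limma, log2 fold change -0.69 ± 0.34 SE, unadjusted p = 0.0815), and without control replicate 3 the log2 fold change was -1.05 (unadjusted p = 0.00378). The exons of *Itga1* share 685 bases on the same strand with *Gm49395*, which reached 3.88 TPM, so that the level of *Itga1* depends on how such reads were divided. *Itga2*, the collagen receptor of epithelia and platelets, was at 13.84 to 28.78 TPM in control and 13.91 to 22.41 TPM in cKO (log2 fold change -0.32), and *Itga10*, a cartilage collagen receptor, had log2 fold change 0.15 at 1.63 to 5.65 TPM. Of *Itga11*, the unadjusted p was below 0.05 without control replicate 2 (0.0142) and in none of the other 5 fits that left out a library, and the log2 fold change was -0.38 without control replicate 3.

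None of the integrin subunits that bind fibronectin and other RGD-containing ligands met the criteria, and *Itga5* and *Itgb3* were those without overlap. *Itga5*, the fibronectin receptor, was at 8.86, 7.31 and 8.38 TPM in control and at 4.59, 6.97 and 7.04 TPM in cKO, without overlap (limma, log2 fold change -0.37 ± 0.22 SE, unadjusted p = 0.141). *Itgb3*, a subunit of platelets and osteoclasts, was at 1.04 to 1.59 TPM in control and 0.73 to 0.86 TPM in cKO, without overlap (log2 fold change -0.31 ± 0.26 SE). *Itgav*, the common partner of *Itgb3*, *Itgb5*, *Itgb6* and *Itgb8*, had a log2 fold change of 0.04 with a 95% confidence interval of -0.57 to 0.66, and *Itgb5* one of -0.02 (-0.48 to 0.44). *Itgb6* was at 24.86, 22.82 and 29.50 TPM in cKO, cKO replicates 1 and 2 being below the control range (log2 fold change -0.29, 95% confidence interval -0.75 to 0.17). For *Itga4* and *Itga9*, which bind VCAM1, fibronectin and tenascin C, the log2 fold changes were -0.36 and -0.34, and 1124 exon bases of *Itga4* are shared with *Cerkl* on the opposite strand. *Itga8* (0.22 to 0.90 TPM) and *Itgb8* (0.33 to 1.43 TPM) were under the limit for testing.

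The following integrin subunits are known from blood cells, and the highest value among them was 9.38 TPM, for *Itgb7*. *Itga2b*, the platelet partner of *Itgb3*, was at 1.11 to 3.09 TPM in control and 0.43 to 2.29 TPM in cKO, and *Itgb7*, a subunit known from lymphocytes, was at 4.23 to 9.38 TPM in control and 5.95 to 8.16 TPM in cKO. Their log2 fold changes were -0.45 and 0.01 and their groups overlapped. The leukocyte subunits were near 0: *Itgal*, *Itgam*, *Itgax* and *Itgae* reached at most 0.62 TPM, *Itgad* was listed at 0 in every library, and *Itgb2*, their common partner except that of *Itgae*, was at 0.50 to 1.15 TPM. *Ptprc*, which marks leukocytes, was at most 0.50 TPM, and which cells gave the *Itgb7* values was not tested.

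Across the 28 genes, the cKO libraries differed from one another. In cKO replicates 1, 2 and 3, 17, 16 and 9 of the 28 genes were below every control library, that is 60.7%, 57.1% and 32.1%. Over all genes tested the shares were 32.3%, 17.0% and 28.5%, and in cKO replicate 3 the shares were closest to each other. The median difference of the 28 genes from the control mean was -0.51, -0.30 and -0.21 on the log2 scale, beside -0.13, 0.12 and -0.16 over all genes. Thus the 28 genes lay below all genes of the same library by more in cKO replicates 1 and 2 than in cKO replicate 3.

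Laminin and integrin transcripts are long, and long transcripts were lower in cKO across the whole table. The longest annotated transcript had a median of 5784 bases over the 28 genes (2683 to 11388 bases), against 3161 bases over all genes tested, and 24 of the 28 were over 4000 bases. Over 12188 protein-coding genes, Spearman's rho between length and log2 fold change was -0.48, as a description across genes that share the same libraries. The median log2 fold change of protein-coding genes was 0.20 up to 1000 bases, -0.17 between 4000 and 6000 bases and -0.32 above 8000 bases. Among the 28 genes rho was -0.25. Once every library was adjusted for the length and GC content of transcripts, 23 of the 28 were lower, beside 61.9% of all genes. Their median log2 fold change was -0.18 (-0.29 for laminins and -0.17 for integrins), and that of all genes was -0.06. Only *Lamb1* then met the criteria (log2 fold change -0.40 ± 0.16 SE, limma, unadjusted p = 0.0416, adjusted p = 1.00), beside 2.12% of all genes lower. The corrected log2 fold changes of *Lama3* and *Lamb3* were -0.53 and -0.45 (limma, unadjusted p = 0.137 and 0.0608), that of *Lamb2* was -0.29 (unadjusted p = 0.211) and that of *Itga11* was -0.39 (unadjusted p = 0.0686). The corrected values of *Lama5* and *Lamc1* were 0.09 and -0.04. The part of transcript length in the lower values of these genes was not tested beyond this correction.

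**Figure D5:**
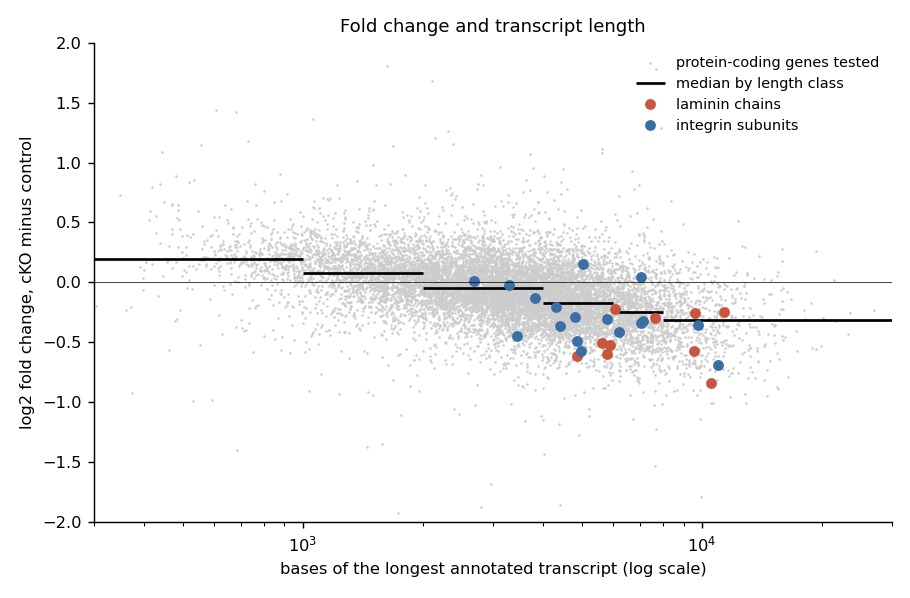
Log2 fold change (cKO minus control, log2(TPM + 1) scale) against the longest annotated transcript in bases (log axis) for 12188 protein-coding genes, with 27 laminin and integrin genes marked; 17 genes lie outside the plotted range. The cloud falls from left to right (Spearman's rho -0.48), and 23 of the 27 marked genes are over 4000 bases long.

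Genes that work with laminins and integrins were read from 5 lists. Of 44 genes 42 were tested, and 35 were lower, beside 60.3% of all genes. Their median log2 fold change was -0.25, beside -0.07 over all genes. The median of their longest transcripts was 4958 bases, and 77.5% of protein-coding genes of 4000 to 6000 bases were lower. *Plec*, *Col17a1*, *Tnc*, *Tln1* and *Tns1* met the criteria, all lower, which is 11.9% of the 42, beside 2.47% of all genes. This number was 2, 7 and 4 without control replicates 1, 2 and 3, beside 0.911%, 1.35% and 6.73% of all genes lower, and in the last of these fits 1 gene (*Rpsa*) was higher. It was 1, 1 and 15 without cKO replicates 1, 2 and 3, beside 0.685%, 1.35% and 4.31% of all genes lower. After the correction it was 1 (*Plec*), beside 2.12% of all genes, and the median was -0.12, beside -0.06 over all genes.

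All 4 hemidesmosome partners were lower on average, beside 60.3% of all genes, and *Plec* and *Col17a1* met the criteria, beside 2.47% of all genes lower. *Plec*, which encodes plectin, the link from *Itgb4* to keratin, was at 19.35, 22.66 and 18.23 TPM in control and at 7.76, 9.45 and 15.61 TPM in cKO replicates 1 to 3. No cKO library reached the control range (limma, log2 fold change -0.87 ± 0.27 SE, unadjusted p = 0.0129, and -0.50 with unadjusted p = 0.0425 after the correction). *Col17a1*, a transmembrane collagen of the hemidesmosome that binds laminin-332, was at 161.80, 145.31 and 137.65 TPM in control and at 95.69, 109.38 and 123.12 TPM in cKO. Here too the groups did not overlap (limma, log2 fold change -0.44 ± 0.16 SE, unadjusted p = 0.0249, and -0.23 with unadjusted p = 0.141 after the correction). *Dst*, which encodes the plakin BP230, and *Cd151*, a tetraspanin that binds laminin-binding integrins, overlapped between groups, with log2 fold changes of -0.43 and -0.22 (limma, unadjusted p = 0.177 and 0.275). After the correction their log2 fold changes were -0.07 and -0.27 (limma, unadjusted p = 0.723 and 0.0846). The longest transcripts of *Plec* and *Dst* have 15455 and 23279 bases, and 89.2% of protein-coding genes above 8000 bases were lower.

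Among the other lists, 16 of 17 tested genes of the integrin adhesion complex were lower. This and the uncorrected counts of lower genes below stand beside 60.3% of all genes. For protein-coding genes the share was 77.5% at 4000 to 6000 bases and 84.4% at 6000 to 8000 bases. *Tln1*, which encodes talin that activates integrins, was at 22.11 to 28.65 TPM in control and 13.52 to 21.41 TPM in cKO, and *Tns1*, which encodes tensin that ties integrins to actin, was at 4.85 to 6.53 TPM in control and 2.11 to 3.91 TPM in cKO. Their log2 fold changes were -0.57 ± 0.22 SE and -0.75 ± 0.25 SE (limma, unadjusted p = 0.0341 and 0.02). Of the basement membrane genes outside the laminins, 9 of 10 were lower and none met the criteria. *Col4a1* and *Col4a2*, the main basement membrane collagens, had log2 fold changes of -0.72 and -0.73 with overlapping groups (limma, unadjusted p = 0.0735 and 0.0966). Of 6 tested ligands other than laminins, 4 were lower, and *Tnc*, which encodes tenascin C, a ligand of *Itga9*, met the criteria at 53.70, 32.03 and 40.12 TPM in control and at 24.74, 24.02 and 31.55 TPM in cKO (limma, log2 fold change -0.61 ± 0.23 SE, unadjusted p = 0.0311). Of the laminin receptors that are not integrins, 2 of 5 were lower and none met the criteria. The median of their longest transcripts was 2458 bases, shorter than in the other lists. After the length and GC correction, 15 of 17 genes of the adhesion complex and 6 of 10 basement membrane genes were lower. So were 3 of 6 ligands and 4 of 5 of these receptors, beside 61.9% of all genes.

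Several of the genes described are also expressed by vessels and mesenchyme, and the summed markers of these cells were read beside them. Endothelial and mural markers summed to 161, 117 and 116 TPM in control and to 86.4, 90.0 and 93.7 TPM in cKO, without overlap of the sums. Taken singly, 1 of the 7 markers (*Tek*) was without overlap, beside 6.13% of all genes. All 7 of these markers were above 0, 7 of 7 were lower, and *Tek* and *Cdh5* met the criteria, beside 60.3% of all genes lower and 2.47% that met the criteria lower. After the correction for length and GC content 3 of the 7 did (*Tek*, *Cdh5* and *Rgs5*), beside 2.12% of all genes. *Lama4*, *Lamb1*, *Lamb2*, *Lamc1*, *Itga1* and *Itga5* are known from vessels, and the part of vessel cells in their values was not tested. Erythroid markers summed to 1325 to 1978 TPM in control and 1160 to 1282 TPM in cKO, with 5 of 5 lower and 1 that met the criteria. After the same correction all 5 met them, with a median log2 fold change of -0.57. Mesenchyme and odontoblast markers, which stand beside *Itga11*, summed to 7150, 4563 and 3593 TPM in control and to 4601, 5253 and 4768 TPM in cKO, and none of the 11 tested met the criteria. Control replicate 3, a single library, had the lowest of these sums and the most *Itga11*. Not every marker was lowest there, as *Vim* was at 196.83 TPM in control replicate 2 and 232.01 TPM in control replicate 3. The part of mesenchyme cells in the values of *Itga11* was not tested. Leukocyte and platelet markers summed to 45.3 to 60.5 TPM in control and 41.6 to 49.0 TPM in cKO with none that met the criteria, and muscle markers to at most 2.02 TPM. After the correction 1 leukocyte marker met them (*Lyz2*, log2 fold change -0.37, limma, unadjusted p = 0.0311), beside 2.12% of all genes. Dental epithelium markers summed to 204900 to 246100 TPM in control and to 195700, 100900 and 214800 TPM in cKO replicates 1 to 3. Most of each sum was *Amelx*, at 85450 TPM in cKO replicate 2. Of the 11 markers 10 were lower and none met the criteria. After the correction 1 did (*Ambn*, log2 fold change -1.01, limma, unadjusted p = 0.0456), beside 2.12% of all genes.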

How the data were processed

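RNA was sequenced from dental epithelium in 3 control and 3 cKO libraries. The authors trimmed reads with SeqPrep and Sickle and aligned them with HISAT2; the paper's methods name RSEM for gene abundance and the submitters' processing notes name StringTie. The deposited values are TPM (the methods name FPKM, but each library sums to between 983952 and 993946), and the genome build, the read counts and whether strand was used are not given in the sources used here, so depth is unknown. Between 20185 and 23203 genes were above 0 per library. Groups and replicate numbers come from the sample titles (the columns of the table bear the numbers 1, 3 and 4). The p-values measure the spread between pools of molars.

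Genes averaging 1 TPM or more (13719) were put on the log2(TPM + 1) scale, and limma 3.58.1 (R 4.3.3) was fitted to all of them with a mean-variance trend and no block, with Benjamini-Hochberg adjustment over all genes. Fold changes are on this scale and understate those of low genes. Exact permutation tests were two-sided on TPM. The criteria of the methods (unadjusted p below 0.05, over 20% difference) were counted for every gene. Natural splines with 4 degrees of freedom each for transcript length and GC content corrected each library. Positions, lengths and exons came from GENCODE (GRCm38), which held 99.4% of the identifiers, and promoter sequences from RefSeq, which held 23 of the 37 genes. The script was tested on simulated data.

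The genes, lists and tests were chosen with earlier results of these data known. Of the 37 genes, 1 is counted in the totals and is not reported here by itself. With that exception, values in every library were given for *Lama3*, *Lamb3*, *Itga6*, *Itgb4*, *Itgb1*, the highest gene of each class, genes with an unadjusted p below 0.05 and the 3 largest fold changes, and for others where the text describes their groups. Alternatives were other pseudocounts, filters, scalings, variance models and tests, the replicate block, the correction above, and each library left out in turn.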

Additional observations from a re-analysis of the deposited data

How the results depend on the processing

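In 16 alternative settings the number of laminin and integrin genes with an adjusted p below 0.05 was 0 each time. The number that met the criteria, 4 as reported, was 2 under median-ratio scaling, 1 in the Student test, 1 after the length and GC correction (2.44%, 2.05% and 2.12% of all genes lower) and 0 to 9 when a library was left out (0.685% to 6.73%), and that of the adhesion lists, 5 as reported, was 2, 3, 1 and 1 to 15. With the TPM rescaled to protein-coding genes, *Amelx* and *Ambn* left out, which also drops all other gene types, 6 of the genes and 8 of the adhesion lists met the criteria (5.17% of all genes lower). The genes that met the criteria changed with the setting. No gene met them in every one, since none did without control replicate 1 or without cKO replicate 1. Those that met them were *Itga1* and *Lamb2* under median-ratio scaling and *Lamb2* in the Student test, without *Lamb1* in either. The median log2 fold change of the 28 genes was -0.18 after the correction. The methods name 3 pairs of biological replicates and do not say which libraries form a pair. Same-numbered libraries had correlations of deviations of -0.083, 0.289 and 0.398. The last 2 were the highest of any control with any cKO library, but not every library was most like its own number. The main fit took no pairs, and taking the numbers as pairs gave more genes. With the replicate block 7 genes (6.61% of all genes lower) and 8 of the adhesion lists met the criteria. *Lamb3* was then among the 7 (limma with the block, unadjusted p = 0.0147). With the block and the correction the numbers were 2 (*Itga1* and *Lamb3*) and 2 (4.96% of all genes lower), with a median of -0.18. Of the 10 genes followed singly, *Itgb1* was the one whose sign reversed (0.01, 0.017 and 0.01 without control replicate 1, control replicate 2 and cKO replicate 3, in a range from -0.43 to 0.017). The cause of these differences was not tested, and the fits that left out a library also had fewer samples.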
